A study of Mus musculus with 4 samples.

Results

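The interleukin-6 cytokine family and its receptors were followed across the cell types of the mouse fracture callus, with and without serum-induced arthritis. The 10 genes were taken as a fixed list of symbols out of the 32285 genes counted: the ligands *Il6*, *Il11*, *Lif*, *Osm* and *Clcf1*, the receptor chains *Il6ra*, *Il6st*, *Osmr* and *Lifr*, and the feedback inhibitor *Socs3*. All 10 had counts in every library. The rule itself used no measured value.

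Callus cells came from wild-type C57BL/6J mice, 3 months old, at 4 or 7 days post-fracture (dpf). RA mice received K/BxN serum, which carries arthritogenic antibodies and produces joint inflammation in recipient mice without the autoimmune genotype of the donor strain. Control mice received vehicle. Each of the 4 libraries (control_4d, control_7d, RA_4d and RA_7d) held the pooled callus cells of 4 fractures per the series' description (the methods of the study give another number), so each condition was 1 library and no test between conditions was possible. A ratio below is the RA library over the control library of the same day, and its 95% interval covers counting error only.

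Cytokines of this family signal through Il6st (gp130), a receptor chain that most of them share. Interleukin-6 first binds Il6ra and interleukin-11 binds its own alpha chain, and the complexes then join gp130 pairs. Leukaemia inhibitory factor, oncostatin M and the Clcf1 cytokine use gp130 together with Lifr or, for oncostatin M, Osmr. The receptors activate JAK kinases and STAT3, and STAT3 induces *Socs3*, which binds gp130 and damps the signal. In bone, the family is known for actions on osteoblasts, osteoclasts and callus formation, and interleukin-6 is a therapeutic target in rheumatoid arthritis.

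The libraries held 5896 to 10306 barcodes, of which 4110 to 8223 were kept as cells, with a median of 16094 to 17632 UMIs (unique molecular identifiers, each counted as 1 RNA molecule) per cell. Clustering without the pathway's own genes gave 20 classes, named after their markers with the ending "-like" and joined into 7 lineages. Levels are given as CPM, the share of a gene in all UMIs of the same cells on the usual scale, and because 3′ tags are caught with unlike efficiency they are not compared between genes. Myeloid markers were well separated between the myeloid, mesenchymal and endothelial lineages. *Cd68*, *Lyz2*, *Tyrobp* and *Fcer1g* summed to 8855 to 14064 CPM in the first, 138 to 317 in the second and 326 to 555 in the third. In lymphoid cells *Tyrobp* was at 668 to 1143 CPM, against 1444 to 1955 in myeloid cells. The mesenchymal marker *Prrx1* did not separate mural cells (438 to 565 CPM) from mesenchymal cells (484 to 655). *Pdgfra* did, at 1.92 to 30.2 CPM in mural and 207 to 334 in mesenchymal cells. The mix of cells moved with time. Mesenchymal cells made up 18.2% of control_4d, 19.9% of RA_4d, 42.2% of control_7d and 50.1% of RA_7d, while myeloid cells went from 61.4% and 58.7% at 4 dpf to 35.3% and 19.5% at 7 dpf. The granulocyte gene *S100a8* was at 114 CPM in the fibroblast-like cells of RA_4d and at 2.33 to 14.7 in those of the other libraries. Pericyte and smooth muscle-like cells had 387 CPM in RA_4d and 2.40 in control_4d, and dendritic and mast cell-like cells 279 and 2.89. Osteochondral-like cells had 180 and 2.06, and osteoclast-like cells 34.4 and 8.01. Muscle cell-like cells went the other way, at 29.8 in RA_4d and 41.0 in control_4d. Whether this was free RNA was not tested. Among kept cells, 66 barcode sequences occurred in more than 1 library.

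In the mouse genome (GRCm38), *Il6* lies on the plus strand of chr5:30013114-30019981 and *Il6ra* on the minus strand of chr3:89864059-89913196. *Osm* (chr11:4236420-4241026) and *Lif* (chr11:4257557-4272514) are neighbours on the plus strand of chromosome 11, and *Socs3* is on the minus strand of the same chromosome (chr11:117966079-117970047). *Osmr* (chr15:6813577-6874969, minus) and *Lifr* (chr15:7090614-7197489, plus) are neighbours on chromosome 15. *Il11* is at chr7:4772373-4782859, minus, *Clcf1* at chr19:4214238-4223490, plus, and *Il6st* at chr13:112464070-112510086, plus.

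The 250 bases before the RefSeq start of *Il6* (GRCm38.p6, chr5:30012864-30013113, plus strand) are shown because the 7 dpf results turn most on this ligand. Capitals mark an AP-1-type match (TGANTCA) at the left end and an NF-kappaB-type match (GGANTTTCC) 35 to 43 bases before the start.
Il6: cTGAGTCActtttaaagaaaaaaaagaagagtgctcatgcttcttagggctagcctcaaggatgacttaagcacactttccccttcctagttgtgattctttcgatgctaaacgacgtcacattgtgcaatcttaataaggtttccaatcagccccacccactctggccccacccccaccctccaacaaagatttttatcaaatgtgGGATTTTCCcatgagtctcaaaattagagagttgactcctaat
For *Socs3*, the 30 bases around its only match are shown (GRCm38.p6, chr11:117969501-117969530, minus strand), with a STAT-type match (TTCNNNGAA) in capitals, 146 to 154 bases before the RefSeq start.
Socs3: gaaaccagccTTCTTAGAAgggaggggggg
Both strands of 10 RefSeq promoter windows, for 8 of the 10 genes, were searched for these motifs, for the CRE-type TGACGTCA and for the TATA-type TATAAA. Other matches were an AP-1-type motif at *Lif* and at 1 of the pair of *Il11* starts. Among all 32851 promoter windows of this length, 7.02% held the STAT-type motif, 1.07% the NF-kappaB-type, 6.75% the AP-1-type, 1.55% the CRE-type and 12.4% the TATA-type. These are matches of letters only.

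The ligands divided by lineage. *Il6* lay mainly in mesenchymal, mural and endothelial cells, *Il11* and *Lif* in mesenchymal cells, *Osm* in myeloid cells, and *Clcf1* was spread over all lineages with its highest levels in NK and T cell-like and muscle cell-like cells. The stacked shares of UMIs show this division beside the share of cells that each lineage had.

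**Figure D1:**
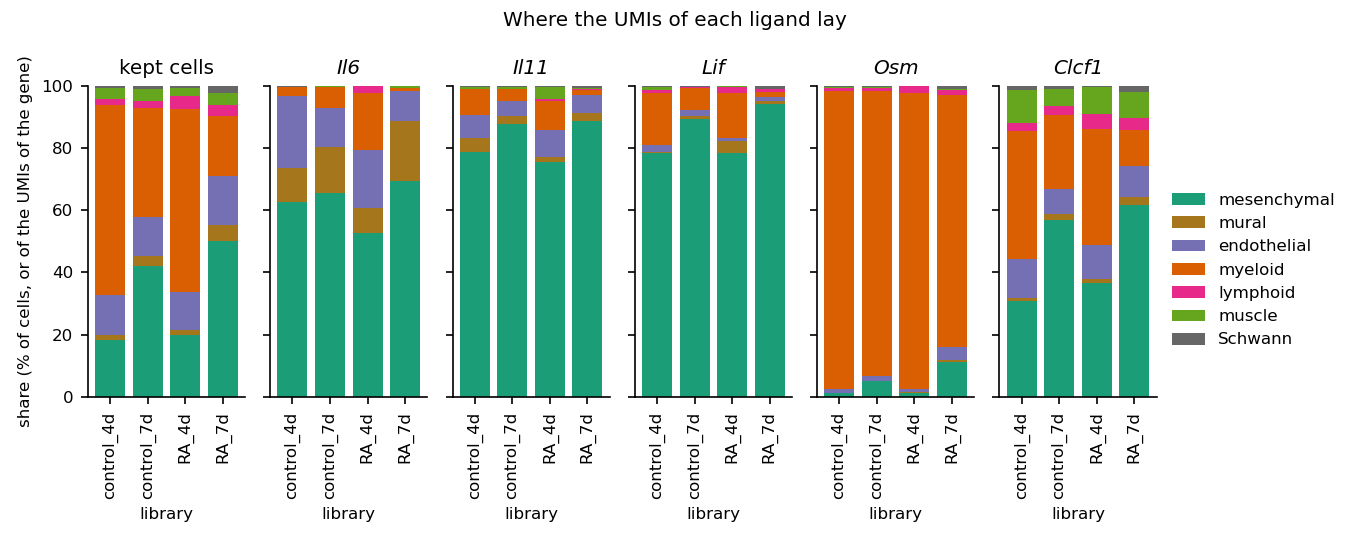
Share of the kept cells (left panel, %) and of the UMIs of each ligand (other panels, %) by lineage in each of the 4 libraries. *Osm* UMIs were 81.1% to 95.9% myeloid, while *Il6* UMIs were 52.6% to 69.4% mesenchymal.

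Of the *Il6* UMIs, the mesenchymal lineage held 62.6% in control_4d (95% Clopper-Pearson interval 60.5% to 64.7%), 52.6% in RA_4d (50.5% to 54.7%), 65.6% in control_7d (63.3% to 67.8%) and 69.4% in RA_7d (68.1% to 70.7%). The mesenchymal lineage held the most *Il6* UMIs in all 4 libraries, at 4 dpf from fewer than 20% of the cells. Such shares depend on how many cells of each lineage were captured. With every class weighted equally, the mesenchymal share was 26.1% to 45.2%. Small classes with high *Il6*, such as the pericyte and smooth muscle-like class, then counted as much as large ones.

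**Figure D2:**
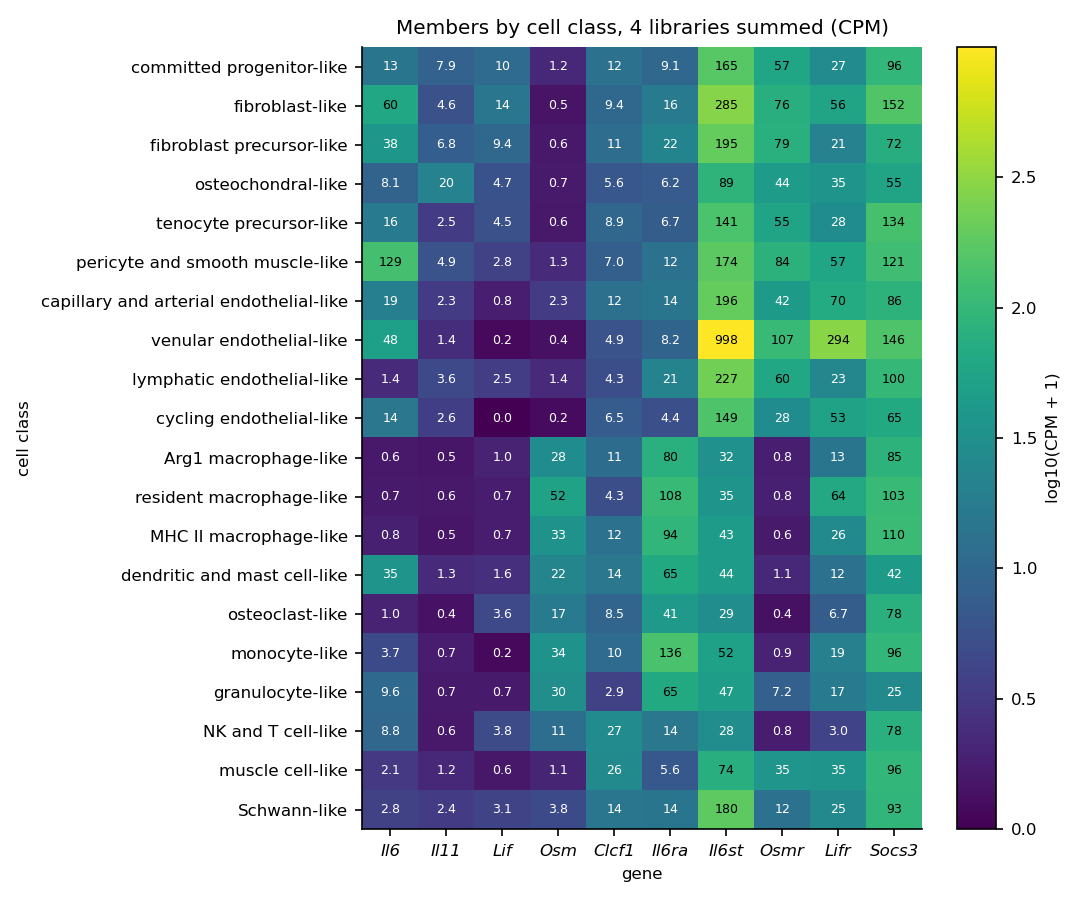
Level of each of the 10 genes (columns) in each of the 20 cell classes (rows), as CPM over the 4 libraries summed, with the colour on a log10 scale. *Il6st* in venular endothelial-like cells is at 998 CPM, while *Il6* is at 0.62 to 0.84 CPM in the 3 macrophage-like classes.

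By class, *Il6* was highest in pericyte and smooth muscle-like cells, at 129 CPM over the 4 libraries summed (123 to 135). Fibroblast-like cells followed at 60.4 CPM, venular endothelial-like cells at 48.1 and fibroblast precursor-like cells at 38.0. Summed over libraries, these 4 intervals did not overlap, but the order below the pericyte and smooth muscle-like class differed between libraries. In control_7d the venular cells (29.7 CPM) were above the fibroblast-like cells (23.0). In control_4d the fibroblast precursor-like cells (72.4) were above both (fibroblast-like 64.8, venular 54.8). In both cases the interval of the higher class overlapped with that of the fibroblast-like cells. Next in the summed order, dendritic and mast cell-like cells (34.6 CPM) could not be separated from fibroblast precursor-like cells. Of the 424 *Il6* UMIs of that class, 394 were in 81 mast cell and basophil-like cells, described below. Its other 871 cells were at 2.64 CPM (1.78 to 3.77). The 3 macrophage-like classes lay at 0.62, 0.65 and 0.84 CPM, with overlapping intervals, and lymphatic endothelial-like cells were at 1.35.

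In the mesenchymal lineage as a whole, *Il6* was at 42.8 CPM in control_4d and 48.8 in RA_4d, a ratio of 1.14 (1.05 to 1.24). At 7 dpf it was at 14.1 CPM in control_7d and 34.1 in RA_7d, a ratio of 2.41 (2.26 to 2.58). The control libraries went from high to low between the days, at a 7 to 4 dpf ratio of 0.33 (0.30 to 0.36), and the RA libraries kept more, at 0.70 (0.65 to 0.75). Held at 1 class mix, the 7 dpf ratio was 1.96. With each cell thinned to 4000 UMIs, 11.6% of mesenchymal cells of control_4d, 11% of RA_4d, 4.20% of control_7d and 8.79% of RA_7d had an *Il6* UMI, and without thinning 37.0%, 34.8%, 15.4% and 25.7%. Of myeloid cells, which included the mast cell and basophil-like cells described below, 0.33% to 1.20% had an *Il6* UMI when thinned.

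The mesenchymal classes had unlike ratios, and the difference between them was not tested. Fibroblast-like cells had 23.0 CPM of *Il6* in control_7d (20.6 to 25.5) and 75.5 in RA_7d (72.2 to 78.9), a ratio of 3.29 (2.93 to 3.70), and 467 of their 1266 cells in RA_7d held an *Il6* UMI. Tenocyte precursor-like cells had 10.6 CPM in control_4d, 45.1 in RA_4d, 5.22 in control_7d and 17.6 in RA_7d, with ratios of 4.25 (2.68 to 6.94) and 3.37 (2.01 to 5.91). At 4 dpf that rested on 14 cells with a UMI, 1 of which held 27 of the 71 UMIs. Fibroblast precursor-like cells were close to fibroblast-like cells at 4 dpf (72.4 CPM in control_4d and 68.6 in RA_4d) and had intervals that included 1 at both days (ratios 0.95, 0.82 to 1.09, and 1.08, 0.96 to 1.22). Committed progenitor-like cells lay lower, at 8.79 to 24.5 CPM, with ratios of 1.51 and 1.62.

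**Figure D3:**
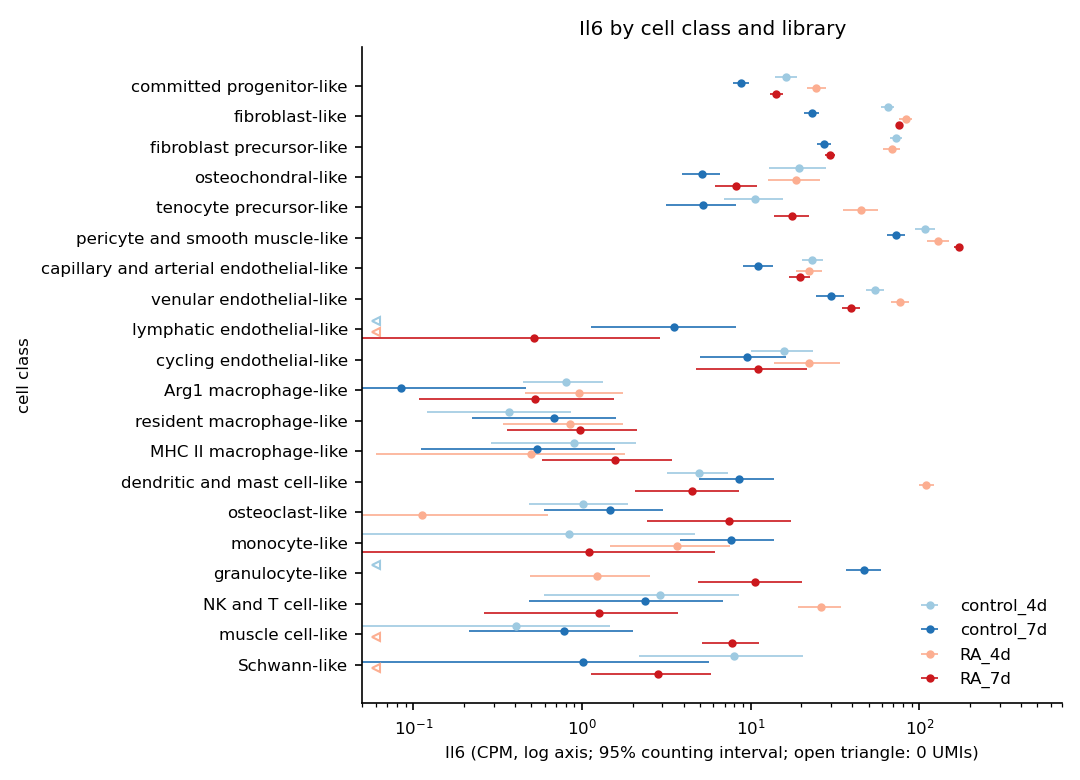
*Il6* level (CPM, log axis) in each cell class (rows) and library (colours), with 95% counting intervals and open triangles where a library had 0 UMIs. In pericyte and smooth muscle-like cells RA_7d is at 171 CPM and control_7d at 72.4, and in fibroblast-like cells at 75.5 and 23.0.

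Pericyte and smooth muscle-like cells had 108 CPM of *Il6* in control_4d, 130 in RA_4d, 72.4 in control_7d and 171 in RA_7d. The ratio was 1.20 (0.98 to 1.46) at 4 dpf and 2.36 (2.05 to 2.72) at 7 dpf, and RA_7d was the highest of the 4 libraries, with UMIs in 162 of 417 cells. Capillary and arterial endothelial-like cells had 11.1 CPM in control_7d and 19.6 in RA_7d (ratio 1.77, 1.37 to 2.28). They did not differ at 4 dpf beyond counting error (0.96, 0.76 to 1.20). Of the cells of this class, 10.4% were called doublets, the highest share of the 20 classes, and class values without doublets were not computed. Venular endothelial-like cells were higher in RA at both days, at 54.8 and 76.6 CPM at 4 dpf and 29.7 and 39.3 at 7 dpf, with ratios of 1.4 and 1.32.

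Genes known to be induced when cells are dissociated were, as a sum, also higher in RA in mesenchymal and mural cells. The summed level of *Fos*, *Jun*, *Egr1*, *Atf3*, *Hspa1a*, *Hspa1b* and *Dnajb1* in mesenchymal cells was 1833 CPM in control_4d, 2460 in RA_4d, 1477 in control_7d and 2054 in RA_7d, and in mural cells 2549, 2890, 2436 and 3360. In the same order the sum was 1351, 1360, 1410 and 1592 CPM in endothelial cells and 1056, 1016, 1032 and 1443 in myeloid cells. The part of these genes in the *Il6* and *Socs3* levels was not tested.

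Few myeloid cells had *Il6*, and in RA_4d most of its UMIs there were in a rare cell type. The myeloid lineage had 1.10 CPM in control_4d, 9.56 in RA_4d, 3.31 in control_7d and 1.94 in RA_7d. At finer resolution, a mast cell and basophil-like cluster of 81 cells separated from the dendritic and mast cell-like class, and 39 of these cells were in RA_4d. They had 361 *Il6* UMIs there, in 17 cells, at 774 CPM (696 to 858), which was 88.5% of the lineage's *Il6* in that library. The cluster was at 93.3 CPM in control_4d (21 cells) and 123 in control_7d (13 cells), each resting on 1 or 2 cells. Its 8 cells of RA_7d had 0 *Il6* UMIs, but they go against the name: the mast cell and basophil markers *Mcpt8* and *Cpa3* had 0 UMIs in the whole dendritic and mast cell-like class of that library, and genes such as *Igkc*, known from B cells, were also among the leading genes of the cluster. Without it, the 4 dpf ratio of the myeloid lineage was 1.48 (0.95 to 2.30) in place of 8.71 (6.63 to 11.6). The same cells of RA_4d had *Osm* at 219 CPM (178 to 265), against 10.2 CPM in the rest of their class.

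Single cells also set some other *Il6* values. In the granulocyte-like class of control_7d, 61 of 70 UMIs were in 1 cell, and without the top cell of each library the 7 dpf ratio of the myeloid lineage was 1.10 in place of 0.59. In NK and T cell-like cells of RA_4d, 49 UMIs came from 3 cells. Basophil and mast cell transcripts also lay outside the cluster of 81 cells. In the granulocyte-like class *Mcpt8* was at 240 CPM in control_7d and at 1.18 to 8.06 in the other libraries. For comparison, *Mcpt8* was at 104 CPM in the dendritic and mast cell-like class of control_7d, which held 13 cells of that cluster. *Cpa3* was at 68.7 CPM in the osteoclast-like class of RA_7d. Whether the granulocyte-like cell with 61 *Il6* UMIs was a basophil was not tested.

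*Osm*, a macrophage product, was confined to no single macrophage class. Resident macrophage-like cells had most, at 53.5 CPM in control_4d, 53.4 in RA_4d, 54.5 in control_7d and 46.0 in RA_7d. These 4 values lay within a narrow range, with ratios of 1.00 (0.88 to 1.12) and 0.84 (0.72 to 0.99). Monocyte-like, MHC II macrophage-like, granulocyte-like and Arg1 macrophage-like cells followed at 28.0 to 34.2 CPM over all libraries, with neighbours in that order overlapping. Fibroblast-like cells were at 0.46 CPM and venular endothelial-like cells at 0.36. The mast cell and basophil-like cluster, seen only at finer resolution, was above every class, at 128 CPM over all libraries (105 to 154). Of its 112 *Osm* UMIs, 102 were in RA_4d. It was at 44.2 CPM in control_4d (20.2 to 83.9) and at 8.76 in control_7d.

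In most myeloid classes the RA to control ratio of *Osm* was near or below 1. In Arg1 macrophage-like cells it was at 29.2 CPM in control_4d and 20.1 in RA_4d (ratio 0.69, 0.58 to 0.81), and at 30.9 and 32.4 at 7 dpf (1.05, 0.87 to 1.26). In osteoclast-like cells (844 in all), a class that also matched the list of cycling cells, the 4 dpf ratio was 0.61 (0.48 to 0.78), with 19.9 CPM in control_4d and 12.2 in RA_4d. At finer resolution the osteoclast-like cluster held 374 cells, and a cycling myeloid cluster held 458. Dendritic and mast cell-like cells were the exception at 4 dpf, with 16.1 and 38.8 CPM (2.41, 1.81 to 3.23). They held the mast cell and basophil-like cells described above. Without those cells the class was not higher in RA, at 14.9 CPM in control_4d (11.6 to 18.8) and 10.2 in RA_4d (6.89 to 14.6). The lineage as a whole had ratios of 0.86 (0.80 to 0.92) and 0.95 (0.86 to 1.04). Over all kept cells, *Osm* was at 17.4 CPM in control_4d, 15.3 in RA_4d, 9.34 in control_7d and 5.28 in RA_7d, in the order of the myeloid share of cells. The myeloid share of *Osm* UMIs in RA_7d was 81.1%, and 93% once called doublets were left out.

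*Lif* was a low mesenchymal transcript. Fibroblast-like cells had 13.9 CPM over all libraries, committed progenitor-like cells 10.1 and fibroblast precursor-like cells 9.37, the last pair with overlapping intervals. In fibroblast precursor-like cells *Lif* was at 8.59 CPM in control_4d, 18.9 in RA_4d, 4.87 in control_7d and 10.4 in RA_7d. RA was higher at both days there, with ratios of 2.20 (1.58 to 3.06) and 2.15 (1.66 to 2.81), in a class whose *Il6* ratios had intervals that included 1. In fibroblast-like cells the ratios were 0.84 (0.64 to 1.11) and 1.29 (1.07 to 1.55). All 17 *Lif* UMIs of the pericyte and smooth muscle-like cells of RA_4d were in 1 cell.

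*Il11* had few UMIs, and single cells held many of them. In the osteochondral-like class of RA_7d, 1 cell held 354 of 382 UMIs. With it the class was at 61.7 CPM against 2.73 in control_7d, and without the top cell of each library the values were 4.56 and 2.57, a ratio of 1.77 (1.02 to 3.05). In committed progenitor-like cells of control_4d, 1 cell held 145 of 212 UMIs. Leaving out the top cell of each library turned both mesenchymal ratios of *Il11* around, from 0.76 to 1.25 at 4 dpf and from 1.23 to 0.78 at 7 dpf. In fibroblast precursor-like cells of 7 dpf, where the top cell of either library held at most 15 UMIs, *Il11* was at 10.9 CPM in control_7d (in 108 of 591 cells) and 5.09 in RA_7d (94 of 1129), a ratio of 0.47 (0.37 to 0.58).

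*Clcf1*, a cytokine that also signals through gp130 and Lifr, was highest in NK and T cell-like cells (27.3 CPM over all libraries) and muscle cell-like cells (25.8), which overlapped. In muscle cell-like cells it was at 22.8 CPM in control_4d, 37.6 in RA_4d, 15.2 in control_7d and 37.5 in RA_7d. Both RA libraries lay above both controls, with ratios of 1.64 (1.23 to 2.19) and 2.46 (1.85 to 3.29). In NK and T cell-like cells the ratios were 0.98 (0.60 to 1.61) and 0.75 (0.50 to 1.15). At 4 dpf *Clcf1* was also higher in RA in osteoclast-like cells (5.68 and 11.2 CPM) and fibroblast precursor-like cells (11.8 and 21.4 CPM), with ratios of 1.97 (1.4 to 2.78) and 1.81 (1.35 to 2.44).

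The receptor chains were arranged otherwise than the ligands. *Il6ra*, the chain that binds interleukin-6, was highest in the myeloid cells that had almost no *Il6*. Monocyte-like cells had 136 CPM over all libraries, resident macrophage-like cells 108, MHC II macrophage-like cells 94.1 and Arg1 macrophage-like cells 79.8, with no overlap between neighbours. Venular endothelial-like cells, among the highest for *Il6st*, had 8.16 CPM of *Il6ra*.

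In myeloid cells *Il6ra* was at 78.2 CPM in control_4d, 83.3 in RA_4d, 75.2 in control_7d and 101 in RA_7d. The ratios were 1.07 and 1.35, both short of 1.5, and RA_7d was the highest library. The mesenchymal lineage had 14.4, 16.7, 8.35 and 16.0 CPM in that order, so control_7d was the low library. The ratio there was 1.16 (1.01 to 1.33) at 4 dpf and 1.91 (1.75 to 2.09) at 7 dpf. Fibroblast precursor-like cells had 12.3 CPM in control_7d and 25.1 in RA_7d (2.04, 1.73 to 2.40), and fibroblast-like cells 9.34 and 17.2 (1.84, 1.52 to 2.24). The defining myeloid markers summed to 138 to 317 CPM in the mesenchymal lineage across the libraries, against at least 8855 in the myeloid lineage. The part of myeloid RNA in the mesenchymal *Il6ra* levels was not tested.

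*Il6st*, the shared gp130 chain, was found in every class and was by far highest in venular endothelial-like cells. It was at 986 CPM there in control_4d, 889 in RA_4d, 780 in control_7d and 1170 in RA_7d. RA_7d was the highest and control_7d the lowest, with a ratio of 0.90 (0.86 to 0.94) at 4 dpf and 1.5 (1.44 to 1.57) at 7 dpf. Capillary and arterial endothelial-like cells had 159, 194, 146 and 272 CPM in the same order (1.22, 1.12 to 1.32, and 1.86, 1.74 to 1.99). For the endothelial lineage the 7 dpf ratio was 1.96 (1.89 to 2.02), from 304 to 595 CPM.

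Fibroblast-like cells had the next highest *Il6st*, at 302 CPM in control_4d, 338 in RA_4d, 237 in control_7d and 295 in RA_7d, with small ratios of 1.12 and 1.24. In fibroblast precursor-like cells it was at 188 CPM in control_4d and 370 in RA_4d (1.96, 1.83 to 2.11), but at 175 and 182 at 7 dpf (1.04, 0.99 to 1.09). NK and T cell-like cells and osteoclast-like cells were lowest, at 28.2 and 28.8 CPM. The 35 osteoclast-like cells of RA_7d had 58.2 CPM against 20.7 in control_7d, and in the same cells *Col1a1*, a mesenchymal marker, was at 1087 CPM against 145. The part of mesenchymal RNA in that difference was not tested.

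*Osmr*, the oncostatin M chain, was found where *Osm* was low. Over all libraries it was at 107 CPM in venular endothelial-like cells and at 84.1 in pericyte and smooth muscle-like cells. The fibroblast precursor-like class (78.7) overlapped with the pericyte and smooth muscle-like class and with the fibroblast-like class (76.1). Resident macrophage-like cells had 0.24 to 1.23 CPM across the libraries. In mesenchymal cells the ratios were 1.19 (1.12 to 1.26) and 1.12 (1.08 to 1.17), and in pericyte and smooth muscle-like cells 1.04 and 1.07. Muscle cell-like cells had 31.5 CPM in control_4d, 49.6 in RA_4d, 22.1 in control_7d and 50.3 in RA_7d, with both RA libraries above both controls (1.57, 1.23 to 2.02, and 2.28, 1.79 to 2.91).

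*Lifr*, the other partner of gp130, was highest in venular endothelial-like cells, at 294 CPM over all libraries. Capillary and arterial endothelial-like cells had 69.5 and resident macrophage-like cells 63.8, the latter overlapping with pericyte and smooth muscle-like cells (57.4), while lymphatic endothelial-like cells had 23.4. In resident macrophage-like cells it was at 68.1 CPM in control_4d, 72.7 in RA_4d, 35.0 in control_7d and 76.5 in RA_7d. Only control_7d was low, so the 4 dpf ratio was 1.07 (0.96 to 1.18) and the 7 dpf ratio 2.18 (1.87 to 2.55). The same was seen in tenocyte precursor-like cells at 7 dpf, with 14 and 39.3 CPM (2.80, 2.03 to 3.92). At 7 dpf, *Lifr* was at least 1.5-fold higher in RA in 11 of the 17 classes with 50 or more UMIs and 1.5-fold lower in 0. At 4 dpf it was higher in 5 of 17 classes and lower in 2. The share over all genes was not computed by class, and the ratios of all classes at 1 day share the same pair of libraries. In the mesenchymal lineage as a whole the ratio of *Lifr* was larger at 4 dpf, at 1.38, than at 7 dpf, at 1.20 (1.14 to 1.26).

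**Figure D4:**
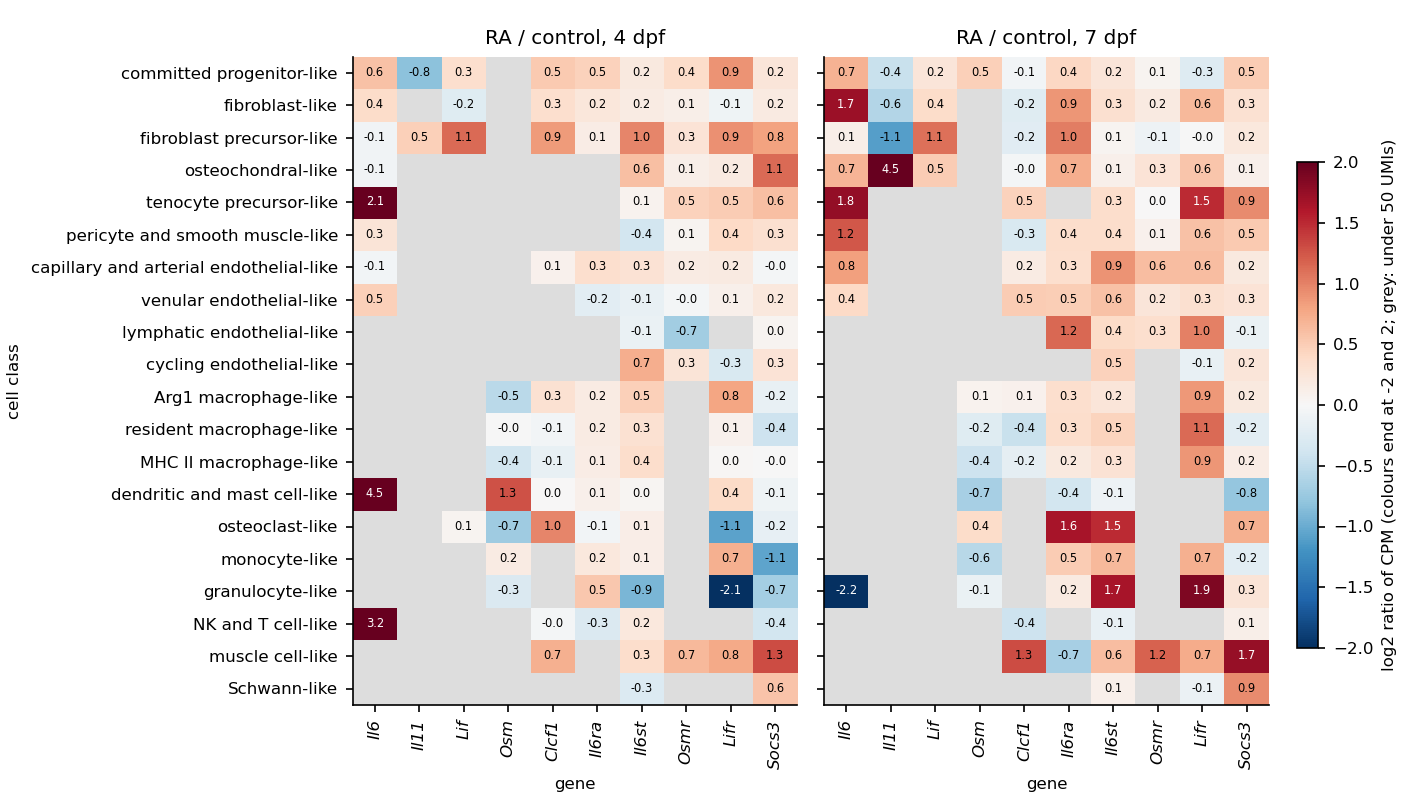
log2 of the RA over control ratio of CPM for each gene (columns) and cell class (rows) at 4 dpf (left) and 7 dpf (right), with grey where the pair of libraries held under 50 UMIs. The *Lifr* column is above 0 in most classes at 7 dpf, and the muscle cell-like row is above 0 for *Socs3*, *Osmr*, *Lifr* and *Clcf1* at both days. The values of *Il6* in dendritic and mast cell-like cells and of *Il11* in osteochondral-like cells rest on few cells.

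*Socs3*, the feedback target of STAT3, was present in all classes, from 25.3 CPM in granulocyte-like cells to 152 in fibroblast-like cells over all libraries. In the mesenchymal lineage it was at 106 CPM in control_4d, 139 in RA_4d, 79.6 in control_7d and 109 in RA_7d. RA was higher on both days, with ratios of 1.32 (1.25 to 1.38) and 1.37 (1.32 to 1.41), both short of 1.5. In the myeloid lineage it was lower in RA at 4 dpf, at 93.1 and 71.5 CPM (0.77, 0.73 to 0.80), and did not differ beyond counting error at 7 dpf (1.05, 0.99 to 1.12). Monocyte-like cells had the lowest 4 dpf ratio with an interval that excluded 1, at 129 and 61.9 CPM (0.48, 0.37 to 0.61).

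The class with the highest *Socs3* ratios was the muscle cell-like one. It had 65.5 CPM in control_4d, 161 in RA_4d, 48.7 in control_7d and 163 in RA_7d, with ratios of 2.46 (2.11 to 2.86) and 3.36 (2.89 to 3.91). Thinned to 4000 UMIs, 27.9%, 42.2%, 19.7% and 41.7% of these cells had a *Socs3* UMI in that order. *Osmr*, *Lifr* and *Clcf1* were also higher in both RA libraries of this class. *Pax7*, a marker of muscle stem cells, was at 224 CPM in control_4d, 399 in RA_4d, 202 in control_7d and 342 in RA_7d. *Myog*, a marker of differentiating muscle cells, was at 413, 222, 388 and 485 in that order, so it was lower in RA at 4 dpf and higher at 7 dpf. The dissociation genes named above summed to 832, 1222, 706 and 1415 CPM. Whether the share of stem cells or cell handling moved the members was not tested.

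Tenocyte precursor-like cells were the mesenchymal class with *Socs3* at least 1.5-fold higher on both days, at 128 CPM in control_4d, 195 in RA_4d, 82.7 in control_7d and 158 in RA_7d (1.52, 1.29 to 1.78, and 1.92, 1.67 to 2.20). *Il6* was also at least 1.5-fold higher on both days in this class and in committed progenitor-like cells. Pericyte and smooth muscle-like cells had *Socs3* at 103 CPM in control_7d and 148 in RA_7d (1.44, 1.27 to 1.63).

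**Figure D5:**
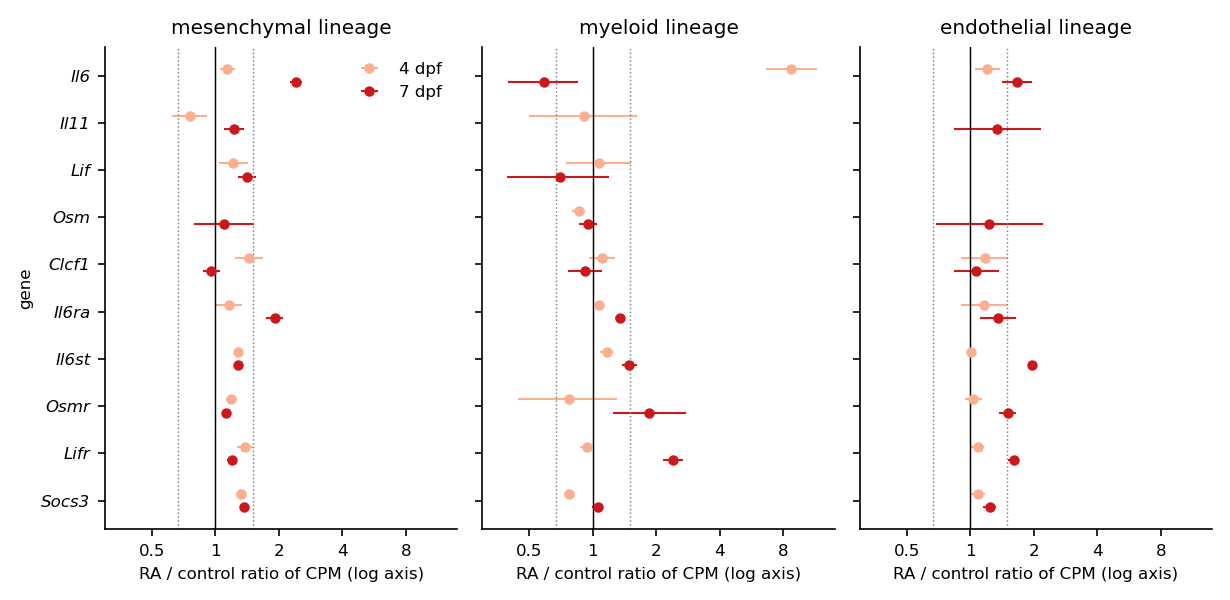
RA over control ratio of CPM (log axis) for each gene (rows) in the mesenchymal, myeloid and endothelial lineages at 4 dpf (light) and 7 dpf (dark), with 95% counting intervals and dotted lines at 1.5-fold. In the endothelial lineage the 4 dpf points lie near 1 and *Il6st* at 7 dpf is at 1.96. The myeloid *Il6* point at 4 dpf rests on mast cell and basophil-like cells.

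Counted by lineage, few members passed 1.5-fold at 4 dpf. Among those with 50 or more UMIs over the pair of libraries, 0 of 9 mesenchymal members were higher in RA (background 7.67% of all genes so counted) and 0 lower (3.83%). In the myeloid lineage 1 of 10 was higher, *Il6* (7.14%), and 0 lower (4.93%). In the endothelial lineage 0 of 7 were higher (4.02%) and 0 lower (2.92%). These shares are near the background. The median log2 ratio of the members at 4 dpf was 0.29 in the mesenchymal lineage, against 0.04 over all genes. It was 0.001 against 0.01 in the myeloid and 0.12 against 0.02 in the endothelial lineage.

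At 7 dpf, 2 of 10 mesenchymal members were higher in RA (background 8.62%), *Il6* and *Il6ra*, and 0 lower (8.73%). In the myeloid lineage 2 of 9 were higher (7.42%), *Lifr* and, at 1.48 and 2.74 CPM, *Osmr*, and 1 was lower (4.48%), the *Il6* value that 1 cell decided. Over all libraries, *Osmr* was at 7.24 CPM in granulocyte-like cells and at 0.37 to 1.14 in the other myeloid classes. The part of endothelial RNA in the *Osmr* call was not tested. In the endothelial lineage 4 of 9 were higher (6.13%), *Il6*, *Il6st*, *Osmr* and *Lifr*, and 0 lower (5.06%). The median log2 ratio of the endothelial members was 0.43, against 0.01 over all genes. That of the mesenchymal members was 0.32 against -0.04, and that of the myeloid members 0.08 against 0.002. The endothelial *Il6st* ratio exceeded that of its venular and capillary classes, whose cell numbers went from 280 and 516 in control_7d to 546 and 572 in RA_7d. With the class mix held fixed, 1 of the 4 endothelial calls was left, that of *Il6st* at 1.57, while *Lifr* was at 1.32, *Osmr* at 1.30 and *Il6* at 1.45.

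The wider pathway list of 51 genes, which holds the 10 members, gave the context. In the mesenchymal lineage at 7 dpf, 11 of the other 41 genes were higher in RA (8.62% over all genes) and 3 lower (8.73%), with a median log2 ratio of 0.19 against -0.04 over all genes. *Il6* and *Il6ra* were among the genes of the list with the largest ratios, as were a pair of acute-phase genes. *Saa3*, an acute-phase serum amyloid gene, was at 34.3 CPM in control_7d and 139 in RA_7d (4.04, 3.88 to 4.20). *Serpina3n*, an acute-phase protease inhibitor, was at 42.4 and 152 (3.6, 3.47 to 3.73).

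At 4 dpf in the mesenchymal lineage, 4 of 37 other genes were higher (7.67% over all genes) and 1 lower (3.83%). The myeloid lineage had 4 of 36 higher (7.14%) and 2 lower (4.93%) at 4 dpf, and 4 of 35 higher (7.42%) and 0 lower (4.48%) at 7 dpf. The endothelial lineage had 3 of 33 higher (4.02%) and 0 lower (2.92%) at 4 dpf, and 5 of 36 higher (6.13%) and 1 lower (5.06%) at 7 dpf. *Il11ra1*, the interleukin-11 alpha chain, was at 153 CPM in control_7d and 264 in RA_7d in mesenchymal cells (1.73, 1.69 to 1.77).

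Between the days, *Il6st* and *Lifr* in endothelial cells were lower at 7 dpf in control and higher in RA. The 7 to 4 dpf ratio of *Il6st* in the endothelial lineage was 0.71 (0.69 to 0.74) in control and 1.39 (1.34 to 1.44) in RA, and that of *Lifr* 0.77 (0.72 to 0.83) and 1.15 (1.08 to 1.22). *Osmr* there had 0.67 and 0.97, and *Il6ra* 1.23 and 1.42, so neither went in opposite directions. In the myeloid lineage *Lifr* had 0.61 (0.55 to 0.67) and 1.55 (1.42 to 1.7). *Il6* in endothelial cells was lower at 7 than at 4 dpf in both, at 0.47 and 0.64, as was *Socs3* in mesenchymal cells, at 0.75 and 0.78. The mix of endothelial classes also moved between the days. Venular endothelial-like cells numbered 265 and 280 in control and 197 and 546 in RA at 4 and 7 dpf. Capillary and arterial endothelial-like cells numbered 346 and 516, and 237 and 572. The part of this mix in the endothelial ratios was not tested.

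Genes with the most similar pattern were sought over 69 combinations of class and library with 50 or more cells, as Pearson's r of log2(CPM + 1), which shares library and depth across points. *Osm* was most like *Ptpn6* (r = 0.97), *Tnfaip8l2* (0.97) and *Vav1* (0.97), and *Il6ra* like *Aph1c* (0.93), *Lst1* (0.93) and *Tlr2* (0.93). *Osmr* was closest to *Ebf3* (0.97), *Tns2* (0.97) and *Rhoj* (0.97), and *Il6st* to *Bmpr2* (0.91), *Zfp423* (0.89) and *Bace2* (0.88). *Il6* itself had no close match, its nearest being *Ebf1* (0.80), *Atp8b1* (0.79) and *Il1r1* (0.79). *Lif* was nearest to *Fdxr* (0.83), *Il11* to *Zfp618* (0.81), *Lifr* to *Klf7* (0.83) and *Clcf1* to *Ube2j1* (0.67).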

How the data were processed

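Callus cells were measured by droplet single-cell RNA sequencing (10x Chromium 3′ v3.1; 10000 cells loaded per library). The authors deposited UMI counts per gene and barcode, unnormalized, made with Cell Ranger 7.0.1 on mm10 per the submitters' processing notes. The method counts 1 tag per molecule near the 3′ end, so levels do not scale with gene length. The members and gene lists were chosen with earlier results of these data known.

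Barcodes with 4000 to 50000 UMIs, 2000 to 7000 genes and at most 8% mitochondrial UMIs were kept, after the study's filter (25479 of 34038). Scrublet (scanpy 1.11.5) called 592 of them doublets (2.32%), which were kept in and left out as an alternative. Cells were clustered in Seurat 5.3.0 (R 4.3.3) on 2000 variable genes without the 51 pathway genes, after canonical correlation integration (30 dimensions), with 15 principal components and resolution 0.4, the lowest that gave 20 clusters. A class took the name of the marker list with the highest mean log2 level over the other cells (pseudocount 10 CPM, at least 3 markers detected).

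Counts of a gene were summed over the cells of a class or lineage and library and divided by the summed UMIs (CPM), with exact Poisson intervals. Ratios have exact conditional 95% intervals, and shares Clopper-Pearson intervals. Intervals cover counting error only: UMIs of 1 cell are not independent, and with 1 library per condition neither variation between mice nor a library effect could be estimated, so no p-value was computed. A gene was counted past 1.5-fold only with 50 or more UMIs over both libraries. The ratio code was tested on simulated data (numpy 2.4.6, scipy 1.17.1). For shares of cells with a UMI, each cell was thinned to 4000 UMIs.

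The genes named are the 10 members, the 5 pathway genes with the largest mesenchymal ratio at 7 dpf (1 of which is not reported here), the 3 genes most like each ligand and receptor, and class markers; *Il11ra1*, the dissociation genes, *S100a8*, *Mcpt8*, *Cpa3*, *Igkc* and *Myog* were named after their values were seen. Promoter sequences are from RefSeq (GRCm38.p6) and gene positions from GENCODE (GRCm38, the build of mm10). Alternatives were a looser cell filter (at least 1000 UMIs and 500 genes, at most 15% mitochondrial), no integration, resolution 1, pathway genes among the variable genes, doublets left out, TMM scaling, a fixed class mix, a fold of 2, a minimum of 10 UMIs, classes weighted equally and no thinning. Leaving out the cell with the most UMIs of a gene, or the mast cell and basophil-like cluster, was chosen after seeing the data.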

Additional observations from a re-analysis of the deposited data

Results flagged for a closer look

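*Il6* in the myeloid lineage was higher in RA at 4 dpf (8.71) and lower at 7 dpf (0.59), with intervals on opposite sides of 1. The difference between the days was not tested, and the values rest on the mast cell and basophil-like cells of RA_4d and on 1 cell of control_7d.

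In granulocyte-like cells, *Il6st* had a ratio of 0.53 at 4 dpf and 3.14 at 7 dpf, and *Lifr* of 0.23 and 3.64, in opposite directions at the 2 days and again not tested. The class had 38 cells in control_4d, 213 in RA_4d, 69 in control_7d and 37 in RA_7d. In those 37 cells the endothelial marker *Pecam1* was at 224 CPM, against 177 in control_7d, 133 in control_4d and 74.6 in RA_4d. Without integration, a cluster of 143 cells placed in the myeloid lineage matched the lists of neutrophils, venular endothelial cells and endothelial cells. The part of endothelial RNA in these ratios was not tested.

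Barcodes with under 4000 UMIs, of which only those with at least 1000 could enter the looser-filter alternative, held more *Il6* in RA. They were at 62.1 CPM in RA_4d (50.2 to 76.0) against 9.50 in control_4d, and at 44.7 in RA_7d (36.7 to 54.0) against 9.55 in control_7d. The UMIs were in 16 of 780 and 24 of 1287 barcodes, the top 1 of which held 27 of 94 and 28 of 108. Barcodes over 50000 UMIs had closer values, at 24.2 CPM in RA_4d against 21.0 in control_4d and 20.7 in RA_7d against 18.1 in control_7d. The other barcodes left out had 58.6 against 23.1 at 4 dpf and 26.3 against 19.3 at 7 dpf.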

How the results depend on the processing

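The mesenchymal *Il6* ratio at 7 dpf was 1.96 to 2.49 over 8 alternatives, leaving its main interval with the looser filter (2.22) and the fixed class mix (1.96), and at 4 dpf 1.08 to 1.23. The myeloid *Il6* ratio at 7 dpf reversed with the looser filter (1.64) and without the top cell of each library (1.10). Of the members past 1.5-fold, the mesenchymal count at 4 dpf was 1 with the looser filter (0 before), *Lifr* at 1.69 (1.58 to 1.80), before 1.38. At 7 dpf it was 1 at a fold of 2 (2 before). It was 3 when doublets were left out (*Osm* then at 0.49, before 1.09) and 3 with the class mix fixed (*Il11* at 1.51). The myeloid count at 4 dpf was 2 without integration and 2 with the class mix fixed (1 before). At 7 dpf it was 5 without integration and 1 at a fold of 2 (3 before). Without integration the lineage held the cluster of 143 cells named above. The endothelial count at 4 dpf was 2 with 10 or more UMIs (0 before), and at 7 dpf 1 with the class mix fixed and 0 at a fold of 2 (4 before). *Osmr* lost its endothelial call without integration (1.49) and with the looser filter (1.45), where *Osm* gained one (1.62), and *Lif* gained a lower call in the myeloid lineage at 7 dpf with the looser filter (0.56) and without integration (0.66).

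The mesenchymal share of *Il6* UMIs was 69.9% (control_4d), 57.4% (RA_4d) and 67.8% (RA_7d) with the looser filter, and 71.0% in RA_7d without doublets. With classes weighted equally it was 45.2%, 26.1%, 37.9% and 34.1% in control_4d, control_7d, RA_4d and RA_7d. The myeloid share of *Osm* UMIs was 93.3%, 88.7% and 93.7% in control_4d, control_7d and RA_4d with the looser filter. Without integration it was 97.0% in control_4d and 84.3% in RA_7d, without doublets 97.3%, 94.8% and 93% in control_4d, control_7d and RA_7d, and with classes weighted equally 82.8%, 89.0% and 91.8% in control_4d, RA_4d and RA_7d.

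Without thinning, 37.0%, 15.4%, 34.8% and 25.7% of mesenchymal cells of control_4d, control_7d, RA_4d and RA_7d had an *Il6* UMI, and 30.5%, 27.6%, 26.5% and 26.3% of myeloid cells an *Osm* UMI. TMM scaling moved all ratios of a comparison by -0.08 to 0.04 on the log2 scale and changed no call among the other 52 ratios. The cause of these moves was not tested, and no paired analysis was possible because each condition had 1 library.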
